A study of Homo sapiens with 4 samples.

Results

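The S100A genes of chromosome 1q21 encode small proteins of a calcium-binding family. Here 10 of these genes were examined: S100A2, S100A4, S100A6, S100A7, S100A8, S100A9, S100A10, S100A11, S100A14 and S100A16. Accessible regions were assigned to them where a peak of any of the 4 peak lists met the annotated gene body (GENCODE, GRCh38) or the 10 kb upstream of it. Merged over the lists wherever peaks shared at least 1 bp, there were 22 such regions of 93211 in all. Of these, 2 lay in the windows of 2 genes, and 11 held a member's transcription start site (TSS) no more than 1 kb from the summit. By library, 16 of 59629 peaks were member peaks in WT cells and 18 of 67470 after IFN-γ, against 18 of 63203 in FLI1-KO cells and 20 of 59923 after IFN-γ.

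Open chromatin had been mapped in HK1, an established human nasopharyngeal carcinoma line, by ATAC-seq, where a transposase inserts sequencing adapters into accessible DNA. The cells were wild-type (WT) or had the transcription factor gene FLI1 knocked out by CRISPR (sgFLI1, FLI1-KO), and each kind was either left untreated or exposed to interferon-γ (IFN-γ), for a day per the study's methods. These are the groups WT and WT-IFN-γ, and sgFLI1 and sgFLI1-IFN-γ. Each had 1 library, so replicate spread is unknown, groups were not tested against each other, and all intervals are 95% counting errors within a library. The guide behind sgFLI1, and whether these cells were 1 clone or a pool, were not given in the sources used here.

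Most S100A proteins form dimers that change shape on binding calcium and then dock onto target proteins. Inside the cell, S100A10 and S100A11 bind annexins at membranes, while S100A4 and S100A6 bind cytoskeletal and signalling proteins. S100A8 and S100A9 form calprotectin, which is abundant in neutrophils and is induced, like S100A7, in inflamed squamous epithelium. All of these genes flank or lie in the epidermal differentiation complex, a cluster of genes expressed as keratinocytes mature.

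Every signal below is a summit pileup, the whole number of tags over a peak's summit, worked out from the fold and −log10 p that the lists give. Tag density, the library's background per kb, was 8.04 tags in untreated and 8.84 in treated WT cells, and 6.93 and 6.86 in FLI1-KO cells. Raw pileups are therefore lower in FLI1-KO libraries at equal signal. A scaled pileup is the pileup divided by this density, and ratios between libraries were further centred on the median ratio of all regions listed in both. Strings of 4 values are always given with untreated before treated WT cells and then untreated before treated FLI1-KO cells. The FLI1 gene had 4, 5, 5 and 4 peaks, which does not check the genotype. Of 6 squamous epithelial markers, a promoter summit within 1 kb of a TSS was listed for 2 in WT and 3 in each other library, and the defining genes KRT5, KRT14 and TP63 had none in any list. The desmosome gene DSP had 121, 125, 108 and 95 tags. The epithelial adhesion gene EPCAM had promoter summits in all 4 lists, and its strongest promoter region was lower past 1.5-fold in sgFLI1-IFN-γ over WT-IFN-γ, with a log2 ratio of -0.70. Among leukocyte markers PTPRC and CD3E had none, whereas CD14 had 14, 23, 32 and 23 tags. The stromal gene COL1A1 had 142, 172, 132 and 157 tags. The part of other cells in these results was not tested.

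The sequence that carries the clearest difference between treated and untreated libraries is a region upstream of S100A2, at chr1:153572595-153573000 of GRCh38. It is 406 bp long, intergenic, and has its summit at 153572775. The 300 bases from 100 before the summit, chr1:153572675-153572974 on the plus strand, are shown with the core AANNGAAA, as found in sites of interferon regulatory factors (IRF), and the AP-1 letters TGANTCA in capitals.
S100A2 upstream region: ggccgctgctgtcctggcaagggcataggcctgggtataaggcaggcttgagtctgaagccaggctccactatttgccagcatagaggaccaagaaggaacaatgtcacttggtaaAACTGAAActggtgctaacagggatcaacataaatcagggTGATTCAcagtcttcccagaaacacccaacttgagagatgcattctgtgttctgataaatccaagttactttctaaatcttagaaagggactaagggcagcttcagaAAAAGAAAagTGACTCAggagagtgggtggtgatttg
An IRF core began 16 bases and an AP-1 match 56 bases after the summit, and a second pair began 163 and 173 bases after it. The IRF core was added to the search after this sequence had been seen.

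Next are the 201 bases around the summits of an S100A11 region, the strongest of the 22 in WT, and of the S100A2 promoter region, at chr1:152048238-152048438 and chr1:153566533-153566733 of GRCh38. Both are on the plus strand, with AP-1 matches in capitals.
S100A11 alternative promoter: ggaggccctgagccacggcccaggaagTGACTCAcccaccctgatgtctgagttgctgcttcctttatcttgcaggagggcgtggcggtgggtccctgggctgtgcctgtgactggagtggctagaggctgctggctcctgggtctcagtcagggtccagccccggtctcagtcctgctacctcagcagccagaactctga
S100A2 promoter: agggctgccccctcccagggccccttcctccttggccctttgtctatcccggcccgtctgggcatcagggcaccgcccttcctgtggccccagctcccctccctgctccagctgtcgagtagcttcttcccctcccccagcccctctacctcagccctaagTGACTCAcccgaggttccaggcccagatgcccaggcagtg

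A last pair shows the contrast in base composition between an open and a nearly closed promoter. These are the 250 bases before a RefSeq start (GRCh38.p14, minus strand, 5′ to 3′ along the gene), at chr1:151993860-151994109 for S100A10 and chr1:153391074-153391323 for S100A8, with each CpG in capitals.
S100A10: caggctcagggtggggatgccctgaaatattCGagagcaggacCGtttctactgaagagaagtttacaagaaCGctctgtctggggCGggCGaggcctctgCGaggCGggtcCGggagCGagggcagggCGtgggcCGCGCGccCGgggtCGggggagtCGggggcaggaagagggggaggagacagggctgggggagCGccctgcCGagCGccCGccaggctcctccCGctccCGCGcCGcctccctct
S100A8: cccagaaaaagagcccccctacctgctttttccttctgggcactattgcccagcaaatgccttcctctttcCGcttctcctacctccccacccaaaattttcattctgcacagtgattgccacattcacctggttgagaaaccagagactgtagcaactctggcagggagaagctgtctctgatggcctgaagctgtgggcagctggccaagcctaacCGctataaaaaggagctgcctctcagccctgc

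The first question was which S100A promoters were accessible. A promoter summit was listed for 7 of the 10 genes in WT, WT-IFN-γ and sgFLI1 and for 8 in sgFLI1-IFN-γ. Among 19970 protein-coding genes the share was 66.3%, 67.2%, 66.5% and 65.8%. S100A2, S100A4, S100A6, S100A10, S100A11, S100A14 and S100A16 had promoter summits in all 4 libraries, S100A7 and S100A9 in none, and S100A8 in sgFLI1-IFN-γ alone. Of the 22 regions, 15 were in all 4 lists, against 43.9% of all regions.

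S100A10 (ENSG00000197747.9, minus strand), whose product pairs with annexin A2, had 4 regions in every library. Its promoter region, with the summit at -334 bp from the canonical TSS, had 125 tags in untreated (104 to 149) and 140 in treated WT cells (118 to 165), and 94 (75.96 to 115) and 93 (75.1 to 114) in FLI1-KO cells. Scaled, these were 15.5, 15.8, 13.6 and 13.6, with overlapping intervals. A region in an intron, at -51 bp from an alternative TSS, was stronger, with 151, 178, 154 and 139 tags. The other S100A10 regions were an intronic one at 4907 bp from the canonical TSS, with 126, 114, 107 and 74 tags, and a weaker one at -8010 bp, with 43, 46, 37 and 34.

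S100A11 (ENSG00000163191.6), which encodes a partner of annexin A1, held the strongest region of the set in WT, WT-IFN-γ and sgFLI1 by scaled pileup. It lay at -431 bp from an alternative TSS and at -11334 bp from the canonical one. WT cells had 200 tags there untreated (173 to 230) and 217 treated (189 to 248), and FLI1-KO cells 183 (157 to 212) and 135 (113 to 160). By pileup it ranked at percentile 99.5, 99.7, 99.5 and 98.5 of its list. In sgFLI1-IFN-γ its scaled 19.7 came after the intronic S100A10 region at 20.3 and the S100A16 promoter region at 19.97, and the 3 intervals overlapped. The second S100A11 region reached the canonical TSS, with its summit in an intron at 2051 bp, and had 109, 127, 80 and 67 tags.

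S100A6 (ENSG00000197956.10) and S100A4 (ENSG00000196154.12), whose products bind cytoskeletal and signalling proteins, are neighbours, and the S100A4 promoter region fell in both windows. At the S100A6 promoter, -206 bp from the canonical TSS, there were 102, 105, 87 and 92 tags, which scaled to 12.7, 11.9, 12.6 and 13.4. The S100A4 region, in an intron at 601 bp and at -108 bp from an alternative TSS, had 131, 151, 117 and 101 tags. Scaled, the intervals of the 4 libraries overlapped at both.

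S100A2 (ENSG00000196754.13), a gene active in the basal layer of squamous epithelium, had a promoter region at -789 bp from the canonical TSS and 122 bp from an alternative one. There were 151 tags in untreated (128 to 177) and 158 in treated WT cells (134 to 185), and 151 (128 to 177) and 109 (89.5 to 131) in FLI1-KO cells. Another region lay at -698 bp from the outermost TSS, with 153, 154, 102 and 95 tags. S100A16 (ENSG00000188643.11) and S100A14 (ENSG00000189334.9), both of which are widely expressed in epithelia, completed the open group. S100A16 had 161, 190, 146 and 137 tags at 186 bp from an alternative TSS, and S100A14 had 83, 117, 76 and 72 at -756 bp from one. The region at the far edge of the S100A14 window, with 130, 140, 142 and 126 tags, is the promoter of S100A13 and S100A1, at -99 bp from a TSS of S100A13. Its summit was the only one of the 22 outside the windows.

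**Figure D1:**
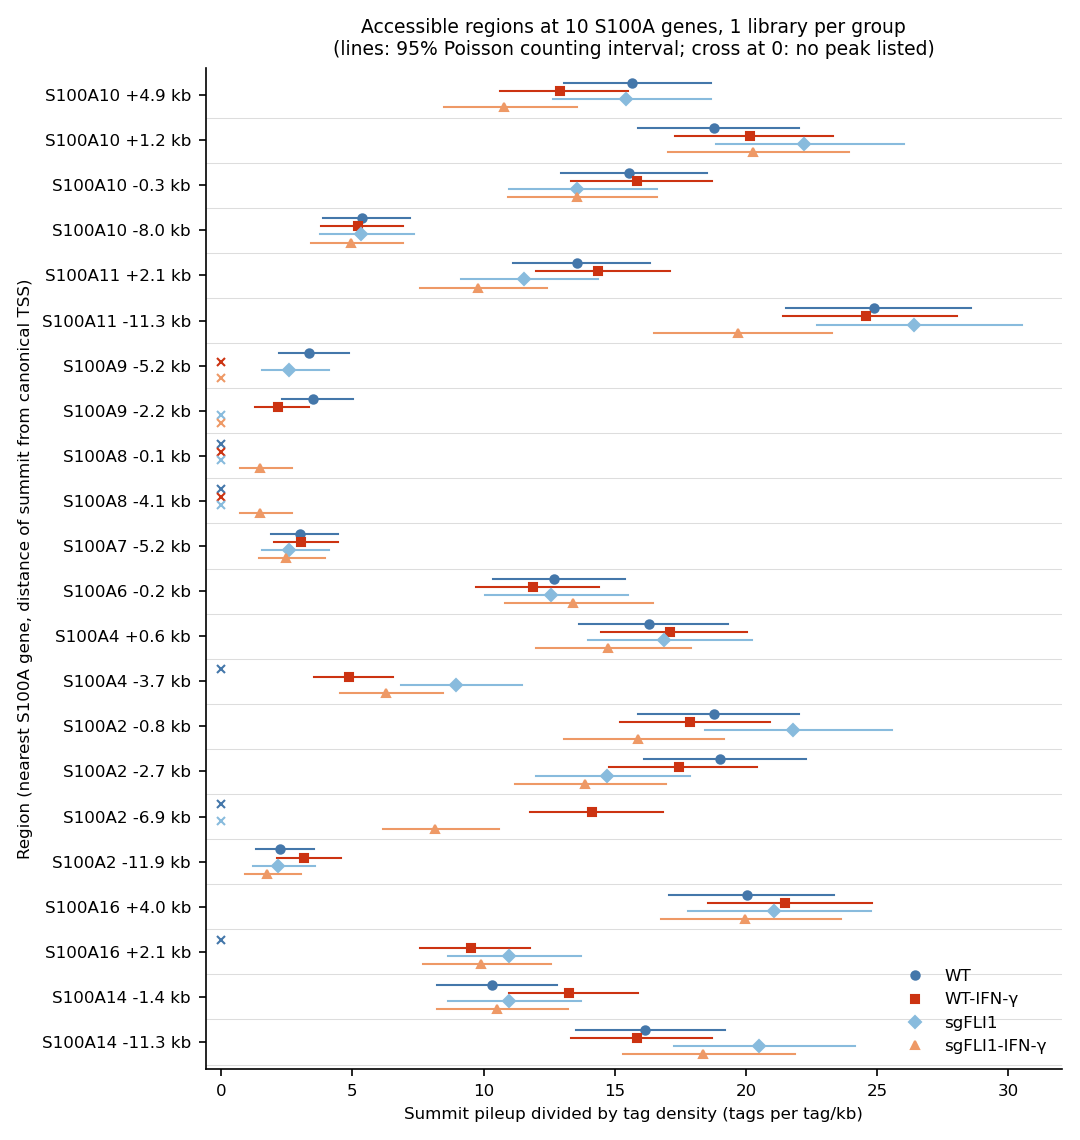
Scaled summit pileup of each of the 22 regions in the 4 libraries, with 95% Poisson counting intervals as lines and crosses at 0 where a list held no peak. Rows are named by the nearest member gene and the distance of the summit from its canonical TSS, in the order along chromosome 1. The regions of S100A7, S100A8 and S100A9 lie below all others but the farthest S100A2 region, and the S100A2 region listed in the IFN-γ libraries alone has crosses in both untreated ones.

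S100A7 (ENSG00000143556.9), S100A8 (ENSG00000143546.10) and S100A9 (ENSG00000163220.11), the genes of psoriasin and calprotectin, had 5 weak regions among them. At S100A7 a region at -5234 bp was listed in every library, with 24 tags (15.4 to 35.7) and 27 (17.8 to 39.3) in WT cells and 18 (10.7 to 28.4) and 17 (9.90 to 27.2) in FLI1-KO cells. At S100A9 a region at -5211 bp, and at -3802 bp from a TSS of PGLYRP4, had 27 tags in WT and 18 in sgFLI1. It was in neither treated list. Another at -2154 bp had 28 tags in untreated WT cells and 19 in treated ones, and was in neither FLI1-KO list. S100A8 had no peak in WT, WT-IFN-γ or sgFLI1, and in sgFLI1-IFN-γ it had 1 at -71 bp from its TSS and 1 at -4112 bp.

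Both S100A8 peaks had 10 tags (4.80 to 18.4), while the lowest pileup in that list was 7. At equal signal the promoter peak would have amounted to 11.1 tags in sgFLI1, where 8 were needed for listing, and the outer one to 11.1 where 9 were needed. These margins are smaller than the counting error, so that whether the S100A8 promoter differed between these libraries was not detectable at this depth. The S100A9 region at -5211 bp would have had 28.3 tags in WT-IFN-γ, where 15 were needed, and 16.2 in sgFLI1-IFN-γ, where 12 were. The one at -2154 bp would have had 24.96 in sgFLI1, where 13 were needed, and 14.5 in sgFLI1-IFN-γ, where 12 were. The 2 expectations in sgFLI1-IFN-γ rest on 18 tags (10.7 to 28.4) and 19 tags (11.4 to 29.7). Their margins too are smaller than the counting error. Each expectation takes its count from the paired library of the same genotype or treatment.

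Base composition varied in the same set. In the RefSeq promoters of all 10 genes, from 250 bases before to 50 after the start, S100A10 held 32 CpG, S100A6 held 31 and S100A11 held 22. The median of all 34943 promoters was 14. S100A9 held 5, S100A7 held 3 and each of the S100A8 starts held 2. The RefSeq starts of S100A2, S100A4, S100A14 and S100A16, which had promoter summits, held between 3 and 8. Those within 1 kb of a region summit held 5 at S100A2, 8 at S100A4 and 8 at S100A16. The other S100A2 and S100A16 starts held 4 and 3. These other starts and those of S100A14, with 5, and S100A11 had no region summit within 1 kb. A low CpG number was thus found in open and closed promoters alike. The letters TATAAA, from 11 to 50 bases before the start, were found at S100A7, S100A9, S100A4 and 1 of the S100A8 starts, as in 2.53% of all promoters.

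The peaks of the open genes had a high local background, and most ranked lower by significance than by pileup. At a given pileup a higher background lowers the significance by construction. Over the 7 open genes the local background of a peak was a median 15.0, 14.4, 13.6 and 12.2 times the library's own. Over all peaks these medians were 1.90, 1.79, 1.91 and 1.96. By pileup the peaks of the open genes had a median percentile of 93.7, 93.2, 90.7 and 92.0, and by −log10 q of 79.8, 81.8, 73.5 and 71.5. The intronic S100A10 region was the extreme case, with a background of 70.1 tags in WT, 31.8 times that of the library. Its 151 tags ranked at percentile 96.8 by pileup and 50.9 by −log10 q. The S100A7 region stood over 1.00 times the library background in WT and ranked higher by −log10 q, at percentile 52.6, than by pileup, at 39.3.

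**Figure D2:**
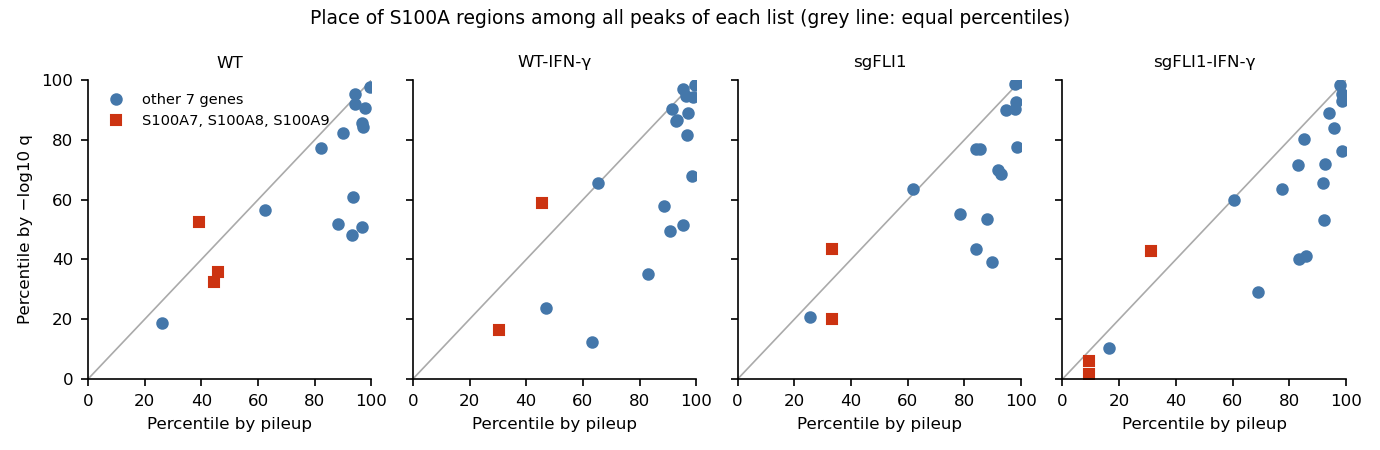
Percentile of each member region among all peaks of its list by summit pileup (horizontal) and by −log10 q (vertical), with 1 panel for each library and a grey line of equal percentiles. Most circles, the regions of the 7 open genes, lie to the right of the line at high pileup, and the squares, regions of S100A7, S100A8 and S100A9, lie at percentile 46.0 or lower by pileup.

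Peak density differed along the chromosome. The 92.4 kb from the S100A6 to the S100A14 window held 8, 12, 10 and 13 peak summits, or 8.66, 12.99, 10.8 and 14.1 per 100 kb. Chromosome 1 as a whole had 2.39, 2.74, 2.70 and 2.54 per 100 kb. The stretch from the S100A9 to the S100A7 window, which holds the genes with weak regions, had 4.89, 4.07, 4.89 and 5.70 per 100 kb, also above the chromosome as a whole. In the 1.29 Mb between the S100A11 and S100A9 windows, which holds most of the epidermal differentiation complex, the density was 2.17, 2.33, 2.71 and 2.48. The median pileup was 27.5, 19, 21 and 17 tags from S100A9 to S100A7 and 20, 20.5, 17 and 16 in the 1.29 Mb, against 116.5, 111, 81.5 and 68 in the stretch from S100A6 to S100A14. Among 31 other S100 and epidermal differentiation complex genes a promoter summit was listed for 2, 3, 4 and 5, and 26 had none in any list.

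IFN-γ was the next comparison, in WT cells first. Of the member regions listed in both libraries, 13 had at least 60 tags in the pair. None of the 13 was past 1.5-fold higher or lower, where 6.24% of all regions so tested were higher and 2.36% lower. Regions missing from either list had no ratio, the S100A2 upstream region described below among them. The median log2 ratio of the 16 members in both lists was 0.07, against -0.02 in 374 other regions within 5 Mb. The S100A14 promoter had the highest ratio of the 13, at 1.35 (1.01 to 1.81). Of the 18 WT-IFN-γ peaks 3 had no WT peak (25.2% of the whole list), and of the 16 WT peaks 1 had no WT-IFN-γ peak (15.9% of the whole list).

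In FLI1-KO cells no member was past the fold in either direction among 15 tested, where 1.49% of all regions were higher and 1.22% lower. The median log2 ratio of 17 members was -0.01. Of the 20 sgFLI1-IFN-γ peaks 3 had no sgFLI1 peak, as had 18% of the list, and of the 18 sgFLI1 peaks 1 had no sgFLI1-IFN-γ peak, as had 22.2%. Of the 3 without a counterpart, 2 were the weak S100A8 peaks, and the third was the S100A2 upstream region.

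This S100A2 region, at -6931 bp from the canonical and -4885 bp from the outermost TSS, was listed in both treated libraries and in neither untreated one. It had 125 tags in WT-IFN-γ (104 to 149) and 56 in sgFLI1-IFN-γ (42.3 to 72.7), which scaled to 14.1 and 8.16. In WT, where it was not listed, 39 tags were needed and an equal signal would have given 119. In sgFLI1 25 were needed and 62.2 would have been given. A region of this height would thus have been listed in both untreated libraries, at the local background assumed from the treated ones.

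The pattern was shared by 1624 regions of the genome (1.74%), which had a median of 17 tags in WT-IFN-γ and 12 in sgFLI1-IFN-γ. In WT-IFN-γ 6 of them had a higher pileup than the S100A2 region, and in sgFLI1-IFN-γ 7 did. Among all 16838 regions listed in WT-IFN-γ and not in WT, 19 had a higher pileup. These ranks were looked up after the region had been seen. The IRF core shown above was within 100 bp of the summit in 38.5% of the 1624 regions, in 21.6% of all regions and in 4 of the 22 member regions. The longer IRF consensus of the planned search was in 8.74% of the 1624, in 2.01% of all regions and in none of the 22.

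The S100A2 regions nearer to the gene did not follow it. The promoter region had a WT-IFN-γ to WT ratio of 1.00 (0.79 to 1.26) and an sgFLI1-IFN-γ to sgFLI1 ratio of 0.80 (0.62 to 1.03). The region at -2744 bp had 0.96 (0.76 to 1.21) and 1.03 (0.77 to 1.38). The outermost region, at -11921 bp, had 18, 28, 15 and 12 tags, too few to be counted past the fold. Its ratios with IFN-γ were 1.49 (0.79 to 2.85) in WT cells and 0.89 (0.38 to 2.03) in FLI1-KO cells. Its sgFLI1-IFN-γ to WT-IFN-γ ratio was 0.56 (0.26 to 1.14). With such wide intervals, whether it followed the upstream region was not detectable.

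**Figure D3:**
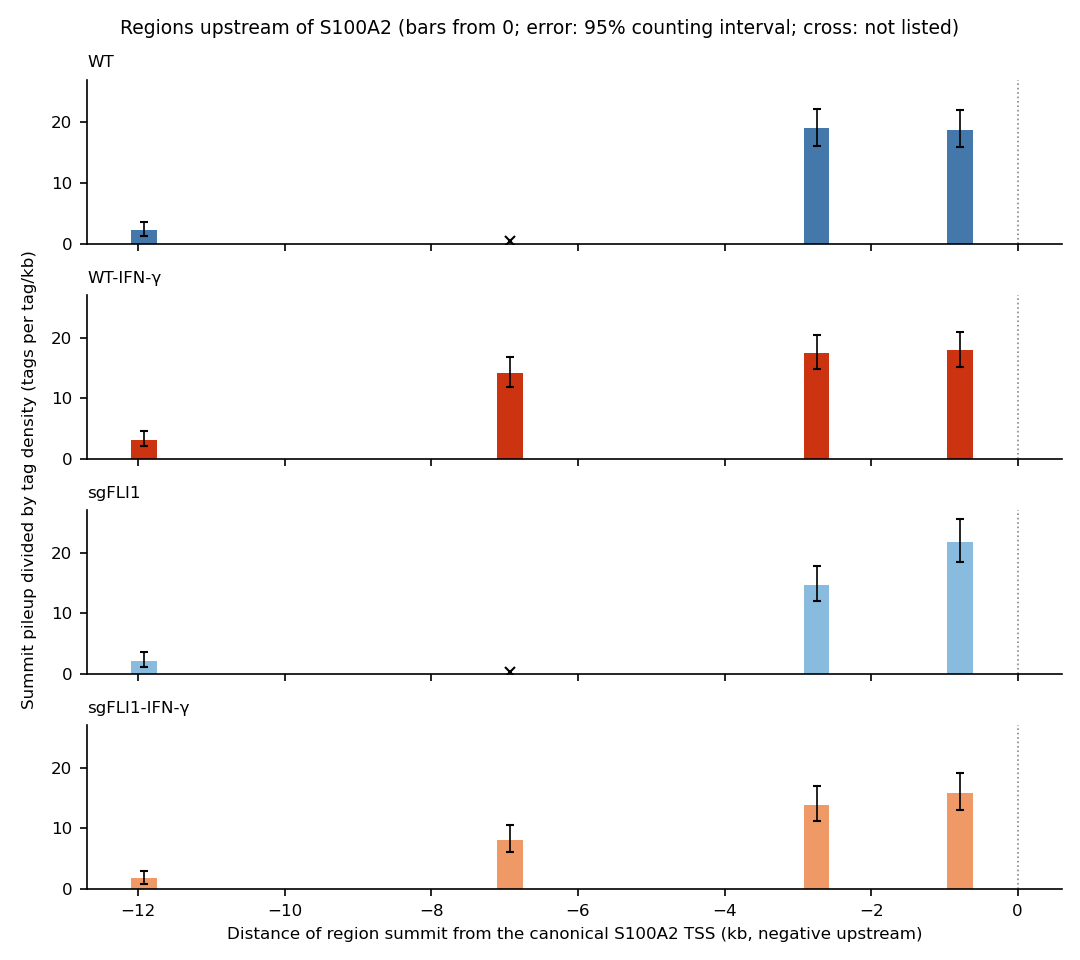
Scaled summit pileup of the 4 regions upstream of S100A2 against the distance of the summit from the canonical TSS (kb), with 1 panel for each library, 95% counting intervals as error bars and crosses where no peak was listed. The region at -6931 bp has a bar in WT-IFN-γ (14.1) and sgFLI1-IFN-γ (8.16) and a cross in both untreated libraries, while the regions nearer to the gene have bars in all 4.

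A further pair of regions was absent from WT and present in the other 3 lists, as were 2.87% of all regions. An intronic S100A16 region, at 2080 bp from the canonical TSS, had 84 tags in treated WT cells and, in FLI1-KO cells, 76 untreated and 68 treated. It would have had 80.3 tags in WT at the signal of WT-IFN-γ, where 58 were needed, and 85.3 at that of sgFLI1, where 57 were. A region in an intron of S100A4 and at -215 bp from a TSS of S100A3, which encodes a hair follicle protein, had 43, 62 and 43 tags. At the signal of WT-IFN-γ it would have had 41.1 tags in WT against 35 needed, a margin smaller than its counting error. At the signal of sgFLI1 it would have had 69.6 tags in WT against 37 needed. Both were listed in untreated FLI1-KO cells as well as in the treated libraries, and the reason for their absence from WT was not tested.

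The loss of FLI1 was compared without IFN-γ first. None of 13 members tested was past the fold in sgFLI1 over WT, where 8.76% of all regions were higher and 7.48% lower. The median log2 ratio of 16 members was -0.06, and that of 363 other regions within 5 Mb was 0.05. The S100A2 region at -2744 bp had 153 tags in WT (130 to 179) and 102 in sgFLI1 (83.2 to 124), and its ratio of 0.75 (0.58 to 0.97) was the lowest of the 13. Of 18 sgFLI1 peaks 2 had no WT peak (25.3% of the whole list), and of 16 WT peaks 1 had no sgFLI1 peak (21.4% of the whole list).

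With IFN-γ, 1 of 16 members was lower past the fold in sgFLI1-IFN-γ over WT-IFN-γ and none was higher, where 9.27% of all regions were lower and 6.68% higher. It was the S100A2 upstream region, with a ratio of 0.59 (0.42 to 0.81), or a log2 ratio of -0.77 (-1.25 to -0.31). At equal signal its 125 tags in WT-IFN-γ would have been 95.6 in sgFLI1-IFN-γ, and 56 were counted. Over the 1624 regions listed with IFN-γ alone in both genotypes the median log2 ratio was -0.07. Only 187 of them had enough tags for a call, a minimum met more readily where WT-IFN-γ was high, and over these the median was -0.45. Of the 187, 45.5% were lower past the fold and 39.0% were below the S100A2 region. The S100A11 region with its intronic summit 2051 bp from the canonical TSS had the next lowest ratio among those tested, 0.69 (0.51 to 0.93).

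Over the 18 members in both treated lists the median log2 ratio was -0.20, and 13 were below 0, against 49.7% of all regions in both. The median of 372 other regions within 5 Mb was 0.08. Of 20 sgFLI1-IFN-γ peaks 2 had no WT-IFN-γ peak (19.8% of the whole list), and of 18 WT-IFN-γ peaks 1 had no sgFLI1-IFN-γ peak (29% of the whole list). The untreated and the treated comparison share no library.

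The local background of the regions was compared between genotypes as well. S100A10 and S100A11 had 5 regions with a local background at least 5 times that of the library. Those of S100A10 had summits between -334 and 4907 bp from its canonical TSS. Their backgrounds may share tags, so the 5 need not be separate observations. At these 5 regions the background over the library's own in sgFLI1 was 0.81 to 0.96 of that in WT, with a median of 0.85. In the treated pair it was 0.72 to 0.81, with a median of 0.79. The medians of all regions with such a background were 0.94 (9760 regions) and 0.93 (9564 regions), and the 5 regions lay between percentiles 17.4 and 54.2 of the former and 7.32 and 19.2 of the latter. At the other member genes these ratios were 0.93 to 1.12 over 7 regions, with a median of 1.06, and 0.69 to 1.18 over 10 in the treated pair, with a median of 0.94. The lowest of all in the treated pair, 0.69 at percentile 4.61, was at the S100A2 upstream region. This measure was added after the data had been seen.

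Motifs were described within 100 bp of the summits, on both strands. AP-1 letters (TGANTCA) were in 7 of the 22 regions and in 22.7% of all regions. These 7 were the strongest region of S100A10, the outer region of S100A11, the S100A3 promoter region, the S100A2 promoter and upstream regions, and 2 regions of S100A16. TEAD letters (GGAATG) were in 3, against 14.8% of all, the p53 family consensus in 3, against 5.14%, C/EBP letters (TTGCNNAA) in 1, against 10.4%, and the CTCF consensus in 1, against 6.51%. The ETS letters CCGGAAGT, of the kind FLI1 binds, were in none of the 22, against 1.02% of all, and GRHL letters (AACCNGTT), the longer IRF consensus and the NF-kappaB consensus were in none either, against 1.22%, 2.01% and 3.63%. The member summits had a median GC content of 59.2%, against 49.8% over all regions.

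Proteins that bind S100A proteins were looked up by promoter. ANXA1 (ENSG00000135046.14), the annexin that S100A11 binds, had 167, 165, 52 and 56 tags at chr9:73151662-73152687. Its sgFLI1 to WT ratio was 0.35 (0.25 to 0.48) and its sgFLI1-IFN-γ to WT-IFN-γ ratio 0.44 (0.32 to 0.60). The other regions within 5 Mb of it had median log2 ratios of -0.39 and -0.32 in these pairs, against -1.52 and -1.17 at ANXA1. The partner of S100A10, ANXA2, had 131, 123, 100 and 90 tags, and the S100A10-bound scaffold AHNAK had 119, 147, 120 and 93. The receptors of extracellular S100 proteins varied, with 165, 175, 118 and 120 tags at BSG, 43, 54, 39 and 44 at TLR4 and no promoter summit at AGER. Of the 5 with a promoter summit, ANXA1 alone was past the fold, and lower in both FLI1-KO libraries.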

How the data were processed

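ATAC-seq peak lists of HK1 cells, 1 for each of 4 groups, were analysed. Per the labels and the study's methods, the authors trimmed reads (Trimmomatic 0.3), mapped them on GRCh38 (Bowtie2 2.3.4.1), removed duplicates and called peaks with MACS2 2.1.2 at a q cutoff of 0.05. The methods also name a filter for reproducible peaks (IDR). Whether the deposited lists precede or follow it, whether they come from pooled replicates and whether tag ends were shifted were not given in the sources used here. For each peak the deposited lists give a score, a fold enrichment over local background (a ratio), and, for the summit, −log10 p and −log10 q.

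Pileup and background were recovered from the deposited fold, (pileup + 1) / (background + 1), and the Poisson −log10 p, for 100% of peaks in each list. Scores were not used. Tag density was the lowest background over the shortest peak length, and it depends on the caller's settings. Ratios were taken only for regions listed in both libraries of a pair. A region was counted past the fold where the centred ratio of scaled pileups exceeded 1.5 and the pileups summed to at least 60 tags. Tags needed for a missing peak were read from the lowest −log10 p of its list at the background of the library where the region was listed, scaled to the other library. Intervals were exact Poisson for pileups and exact conditional binomial for ratios, both at 95%, and cover counting error only, since no molecular identifiers are described.

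All 10 genes were matched in GENCODE 44 and in the RefSeq promoter table. Regions were named where they held a promoter, passed the fold, were missing from a list or were among the 5 highest. Of the binding partners and the other S100 and epidermal differentiation complex genes, those past the fold came first, by log2 ratio, and then those of highest pileup, up to 8. Members, lists and motifs were chosen with earlier results of these data known. The steps were tested on simulated data. Computation used scipy 1.17.1, pandas 2.3.3 and numpy 2.4.6 in Python 3.11.15. The value of 1 marker gene is not reported here.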

Additional observations from a re-analysis of the deposited data

How the results depend on the processing

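With 1 library per group, differences between preparations cannot be told apart from genotype and treatment. With a fold of 2, 0 regions were lower in sgFLI1-IFN-γ over WT-IFN-γ. Centred on other regions within 5 Mb there were 2, the second being the S100A11 region with its intronic summit 2051 bp from the canonical TSS. With a minimum of 30 tags there were 2 as well, the second then being the outermost S100A2 region, at -11921 bp. That minimum gave 1 lower region in WT-IFN-γ over WT, the S100A9 region at -2154 bp. With an overlap of at least 50% of the peak, 2 WT peaks had no WT-IFN-γ counterpart. With −log10 q of at least 5, 1 peak was gained and 0 were lost in sgFLI1-IFN-γ over sgFLI1, and 0 were gained and 0 lost in sgFLI1-IFN-γ over WT-IFN-γ. Within gene bodies alone WT cells had 10 peaks untreated and 11 treated, and treated FLI1-KO cells 13. Within 50 bp of the summit AP-1 was in 2 regions, the p53 family consensus in 1 and C/EBP in 0. The IRF core, chosen after the data were seen, was in 4 regions and the longer consensus in 0. No paired analysis was possible because each group holds 1 library and no result comes from a test.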
